A study of Zea mays with 24 samples.

Results

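The genes described here code for proteins of the cytosolic ribosome of maize. They were taken by their annotation alone: a gene was a member when the description that the deposited W22 and DH4866 tables give it, from its best match in the NCBI non-redundant protein database, named a 40S ribosomal protein, a 60S ribosomal protein or a 60S acidic ribosomal protein. The rule found 192 members among 37467 genes, of which 77 were described as 40S and 115 as 60S. The rule itself reads no measured value, although the group was picked for description with earlier results of these data known. The members carried 71 protein names, 29 of the small subunit and 42 of the large one. A single gene stood behind 17 of these names and 2 or more genes behind the others, up to 10 genes for S4. A description is not proof of function: 2 members were described as L18a-like (GRMZM2G045270 and GRMZM2G138842), and 3 members were described only as a putative L16.

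The cytosolic ribosome translates messenger RNA made in the nucleus. Its small (40S) subunit holds the message and reads its codons, its large (60S) subunit joins the amino acids, and each subunit is a scaffold of ribosomal RNA covered by proteins that are present once per ribosome, with the acidic P proteins of the stalk as the known exception. Plants keep several expressed gene copies (paralogs) for most of these proteins, so that a given protein in a leaf cell can come from several genes. Production of ribosomal proteins is costly and in plants is tied to growth, light, sugar supply and the TOR kinase, and the messages are also regulated at the step of translation, which an RNA measurement does not see.

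RNA was sequenced from leaves of 6 maize genotypes under drought stress and normal conditions, in 3 sets of 8 libraries with 2 replicates per group. In the W22 set, *zmnf-ya1* was compared with its inbred W22: the line, called m67 in the study, is homozygous for a *Mutator* transposon insertion in *ZmNF-YA1* (GRMZM2G000686), a subunit of the nuclear factor Y transcription factor. In the B104 set, *ZmNF-YB16* OE, 1 transgenic line (L187) that overexpresses another subunit of that factor, was compared with its inbred B104, and in the DH4866 set, *ZmNF-YA1* OE was compared with its inbred DH4866. The overexpression of *ZmNF-YA1* in that material was driven, by the study's methods, from the stress-inducible *RD29A* promoter. The labels give the V4 seedling stage for all 24 libraries, whereas the study's methods give V4 only for W22 and *zmnf-ya1* and describe the ear leaf at 5 days after pollination for B104 and *ZmNF-YB16* OE. How the DH4866 set was grown and sequenced is not given in the sources used here. The leaves of several plants were pooled in a library where the methods state it, and each line stands for 1 insertion or transformation event where the sources name one. Because the sets differed in more than the inbred, each was analysed on its own.

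Expected counts summed to between 20696356 and 21289601 per library in the W22 and DH4866 sets, but to between 3429219 and 5608847 in the B104 set. After a filter on low counts, 180 members of 24159 genes were tested in the W22 set, 172 of 21970 in the B104 set and 181 of 24604 in the DH4866 set. The other members were not read in a set or did not pass the filter. *ZmNF-YA1*, the targeted gene, reached 5.17 and 5.72 CPM (expected counts scaled to a common library size) in *zmnf-ya1* under normal conditions, against 11.8 and 12.6 CPM in W22 under normal conditions (log2 fold change -1.16, adjusted p = 3.3e-06). Under drought it was at 5.20 and 4.83 CPM in *zmnf-ya1* and at 5.67 and 6.72 CPM in W22, a difference that missed the threshold (-0.30, adjusted p = 0.14). By the study this line lacked transcripts of the gene, whereas here the gene had 91 to 110 expected counts per *zmnf-ya1* library. In the libraries labelled *ZmNF-YA1* OE it did not stand out: 12.9 and 11.8 CPM against 11.5 and 11.7 CPM in DH4866 under normal conditions (0.10, adjusted p = 0.54), and 6.38 and 6.56 CPM against 7.04 and 7.23 CPM under drought (-0.14, adjusted p = 0.42). These libraries are therefore named by their label throughout. Adjusted p-values are Benjamini-Hochberg values over all genes of a set from edgeR's quasi-likelihood test, and a gene is called at an adjusted p below 0.05. CPM values here are scaled by TMM, which aligns the libraries on the bulk of their genes, and a second scaling by library size alone is given wherever it changed a direction or moved the split of calls.

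Members were abundant transcripts. Over the libraries of a set, the median member had a mean of 17.8 FPKM (read fragments corrected for transcript length and library depth) in the W22 set, 48.0 FPKM in the B104 set and 21.0 FPKM in the DH4866 set, against 3.82, 9.39 and 4.16 FPKM for the median gene tested in those sets. On this scale per length the most abundant 40S member in all 3 sets was S9 (GRMZM2G108348), a small subunit protein, with means of 141 FPKM in the W22 set, 275 FPKM in the B104 set and 130 FPKM in the DH4866 set. The most abundant 60S member in all 3 sets was L10a (GRMZM2G144387), a protein of the L1 stalk, with means of 151, 334 and 175 FPKM. Next to it stood P2 (GRMZM2G114954), an acidic protein of the P stalk, in the W22 and DH4866 sets, and P0 (GRMZM2G066460), the base of that stalk, in the B104 set. The 10 most abundant members held 21.6%, 20.2% and 20.6% of the summed FPKM, so the sums below were not carried by a handful of genes.

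**Figure D1:**
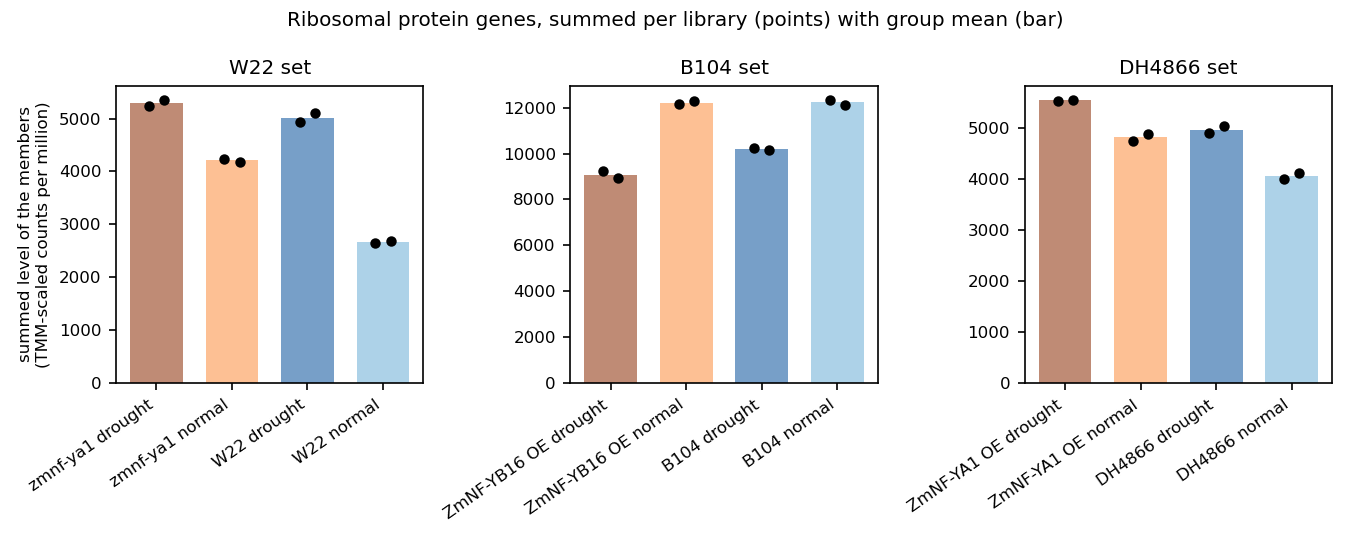
Summed level of the members in each library, in TMM-scaled CPM, with 1 point per library and a bar at the mean of the 2 libraries of a group. In the W22 set the W22 normal libraries sit at 2641 and 2672, below the other 6 libraries, while in the B104 set the drought libraries sit below the normal ones on this scale.

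The members stood lowest in unstressed W22 leaves. Summed over the members, W22 reached 4933 and 5104 CPM under drought, against 2641 and 2672 CPM under normal conditions, and *zmnf-ya1* reached 5248 and 5350 CPM under drought, against 4240 and 4174 CPM under normal conditions. Every drought library of this set lay above every normal one, and under normal conditions both *zmnf-ya1* libraries lay above both W22 libraries. As a share of all expected counts, which uses no TMM scaling, the members took 0.502% and 0.526% in W22 under drought, against 0.298% and 0.303% in W22 under normal conditions, and 0.527% and 0.536% in *zmnf-ya1* under drought, against 0.354% and 0.369% in *zmnf-ya1* under normal conditions. The order of the groups was the same on both scales. An exact permutation test between 2 groups of 2 libraries cannot give a two-sided p below 0.333, so these sums are given with their values and carry no call. In a bulk library, fewer cells of a type and less RNA per cell cannot be told apart.

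In the B104 set the order depended on the scale. B104 reached 10229 and 10173 CPM under drought, against 12335 and 12132 CPM under normal conditions, but its share of expected counts was 1.10% and 1.10% under drought and 1.09% and 1.07% under normal conditions. *ZmNF-YB16* OE reached 9234 and 8932 CPM under drought, against 12156 and 12299 CPM under normal conditions, and here the shares ran the same way, at 1.02% and 1.00% under drought and 1.13% and 1.15% under normal conditions. The members thus took a larger share of the reads in these 8 libraries than in any other, whatever the group. The sets were not tested against each other. By the study's methods the W22 and B104 sets differed in inbred, leaf stage, growth (greenhouse pots or field plots), RNA extraction and sequencer. These differences cannot be told apart, and growth and sequencing of the DH4866 set are not given in the sources used here.

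In the DH4866 set the libraries labelled *ZmNF-YA1* OE reached 5530 and 5542 CPM under drought and 4747 and 4876 CPM under normal conditions. DH4866 reached 4899 and 5032 CPM under drought and 3992 and 4104 CPM under normal conditions. The 4 groups did not overlap in CPM, although as a share of counts DH4866 under drought (0.477% and 0.492%) overlapped *ZmNF-YA1* OE under normal conditions (0.489% and 0.518%).

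Drought raised most ribosomal protein genes of W22. Of 180 members tested, 158 were higher and 11 lower under drought, where 34.8% of all genes tested were higher and 33.8% lower. The median member changed by 0.98 on the log2 scale, with quartiles of 0.60 and 1.31, beside a median of 0.00 for all genes. Both subunits took part, with 64 of 72 members of the 40S subunit and 94 of 108 of the 60S subunit higher, and medians of 1.08 and 0.92. With the further demand of a log2 fold change beyond 1 in size, the fold cut-off of the study's DEGs, 85 members were higher and 6 lower, against 17.5% and 14.4% of all genes. The study tested with DESeq2 and gives its p-value threshold differently in different places, so its own counts are not on these terms. Scaled by library size alone, which lowered the median of all genes by 0.15, 150 members were higher and 13 lower.

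In *zmnf-ya1* the same contrast was smaller. Of the 180 members, 108 were higher and 20 lower under drought, against 28.1% and 29.6% of all genes, and the median member changed by 0.33 with quartiles of 0.11 and 0.53. There, 17 members passed a log2 fold change of 1 and 6 passed -1, against 12.1% and 13.2% of all genes. With library size alone, which shifted the median of all genes by 0.23, 139 were higher and 15 lower, and the median member changed by 0.56. The drought responses of the 2 genotypes were then compared by the interaction term: 137 members had a lower log2 fold change under drought in *zmnf-ya1* than in W22 and 2 a higher one, against 22.5% and 15.3% of all genes. By size regardless of sign, the change was smaller in *zmnf-ya1* for 128 of these 139 members and larger for 11. The median interaction was -0.63. With library size alone these counts were 73 and 9 and the median was -0.26, so the size of this difference depended on the scaling while its direction did not.

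Under normal conditions the 2 genotypes of this set stood apart, and under drought they nearly met. Under normal conditions 154 members were higher and 4 lower in *zmnf-ya1* than in W22, against 30.2% and 23.4% of all genes, and the median was 0.67. Library size alone lowered the median of all genes by 0.35 and gave 92 members higher and 14 lower, which is 86.8% higher among those called instead of 97.5%, with a median member at 0.27. A log2 fold change above 1 was reached by 24 members and one below -1 by 2, against 8.4% and 6.66% of all genes. Under drought 16 members were higher and 3 lower in *zmnf-ya1*, against 9.5% and 9.79% of all genes, with a median of 0.02. The split of these few calls was 84.2% higher with TMM and 73.3% higher with library size alone (11 higher and 4 lower), and leaving out 1 library, W22 drought replicate 1, left 6 calls, while leaving out W22 drought replicate 2 or either *zmnf-ya1* drought library left 9 or 10.

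Other transcripts moved in the same libraries. Storage protein genes of the kernel, a list of 5 of which only 1 to 3 were above 0 in a library, summed to 13.0 to 38.0 FPKM in the 24 libraries. Photosynthetic genes were abundant in all of them. In *zmnf-ya1* under normal conditions the 20 genes of a list of photosynthetic leaf cell markers, all detected, summed to 84844 to 87514 FPKM, against 71412 to 72789.9 FPKM in W22, and the 60 listed genes of a dividing cell list, of which 53 to 56 were above 0, summed to 2401 to 2468 FPKM, against 1848 to 1851 FPKM. Under drought the photosynthetic list summed to 69093 to 69806 FPKM in *zmnf-ya1* and 71569.7 to 71786 FPKM in W22, and the dividing cell list to 1777 to 1813 FPKM in *zmnf-ya1* and 1797 to 1817 FPKM in W22. The 17 genes of a senescing leaf list, of which 15 to 17 were above 0, ran the other way and stayed apart: they summed to 301 to 305 FPKM in *zmnf-ya1* under normal conditions, against 392 to 393 FPKM in W22, and to 375 to 386 FPKM in *zmnf-ya1* under drought, against 509 to 521 FPKM in W22. Their part in the difference between ribosomal protein genes was not tested.

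**Figure D2:**
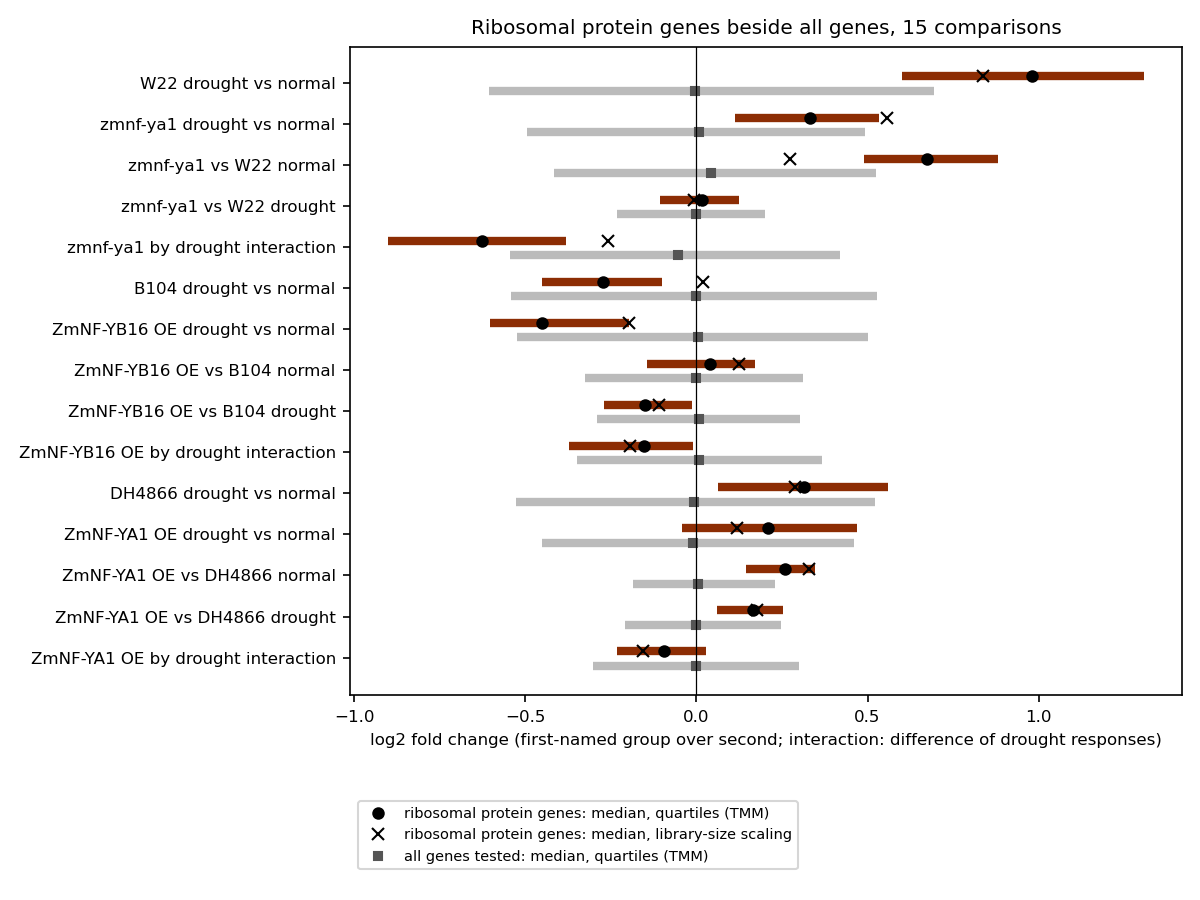
Median log2 fold change (circles) and quartiles (bars) of the members in each of 15 comparisons, beside the median and quartiles of all genes tested (grey), with crosses at the members' median when libraries were scaled by size alone. The members' median is 0.98 for drought in W22 and -0.27 for drought in B104, where the cross, at 0.02, lies on the other side of 0.

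In B104 and *ZmNF-YB16* OE the drought response of the members was small and ran, with TMM, the other way. In B104, 10 members were higher and 96 lower under drought of 172 tested, against 25.3% and 25.9% of all genes, with a median of -0.27, but with library size alone, which raised the median of all genes by 0.29, 30 were higher and 25 lower, which is 54.5% higher among those called instead of 9.4%, and the median was 0.02. The direction in B104 thus depended on the scaling. In *ZmNF-YB16* OE, 4 members were higher and 116 lower, against 25.5% and 25.7% of all genes, with a median of -0.45, and library size alone, with a shift of 0.26 in the median of all genes, gave 11 higher and 73 lower with a median of -0.20. The members of *ZmNF-YB16* OE were therefore lower under drought on both scales. B104 normal replicate 2 was the shallowest library and differed from its partner in the summed level of organelle-type ribosomal protein genes (5317 against 3184 FPKM), and without it 5 members were higher and 92 lower in B104 under drought.

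Between the 2 genotypes of that set the members differed little. Under normal conditions 18 members were higher and 23 lower in *ZmNF-YB16* OE than in B104, against 14.6% and 15.7% of all genes, and the balance turned to 28 higher and 17 lower with library size alone, or from 43.9% to 62.2% higher among those called. Under drought 57 were called, against 31.9% of all genes, of which 8 were higher and 49 lower, the lower against 15.9% of all genes, with a median of -0.15. Library size alone gave 12 higher and 38 lower. The drought response differed for 22 members, of which 19 had a lower and 3 a higher log2 fold change under drought in *ZmNF-YB16* OE, against 8.57% and 9.13% of all genes. Leaving out B104 drought replicate 2 left 29 calls under drought, and leaving out *ZmNF-YB16* OE drought replicate 2 left 34.

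Marker lists moved with drought in these libraries too. The 17 listed photosynthetic genes, of which 16 or 17 were above 0 in every library, summed to 7665 to 7711 FPKM in B104 under drought, against 32043 to 32163 FPKM under normal conditions, and to 8957 to 9246 FPKM in *ZmNF-YB16* OE under drought, against 28455 to 28623 FPKM under normal conditions. The 15 listed senescing leaf genes, all above 0, summed to 997 to 1008 FPKM in B104 under drought, against 449 to 458 FPKM under normal conditions. The dividing cell list, with 58 genes listed and 52 to 56 above 0, summed to 2111 to 2133 FPKM in B104 under drought, against 1443 to 1477 FPKM, and to 2592 to 2595 FPKM in *ZmNF-YB16* OE under drought, against 2113 to 2154 FPKM. Their part in the result was not tested.

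DH4866 resembled W22 in direction, with smaller steps. Under drought 114 members were higher and 18 lower of 181 tested, against 31.6% and 31.1% of all genes, with a median of 0.31. Of the 60S members 77 of 109 were higher, with a median of 0.40, and of the 40S members 37 of 72, with a median of 0.24. In the libraries labelled *ZmNF-YA1* OE 93 were higher and 23 lower, against 29.1% and 28.6% of all genes, with a median of 0.21 and, with library size alone, 70 higher and 27 lower. The drought response differed for 9 members, with a higher log2 fold change for 1 and a lower one for 8 in the libraries labelled *ZmNF-YA1* OE, against 8.67% and 9.4% of all genes, and leaving out *ZmNF-YA1* OE normal replicate 2, DH4866 drought replicate 2 or *ZmNF-YA1* OE drought replicate 1 left 2 calls, or 4 without *ZmNF-YA1* OE drought replicate 2. The dividing cell list, with 64 genes listed and 53 to 58 above 0, summed to 1646 to 1669.5 FPKM in the libraries labelled *ZmNF-YA1* OE under drought, against 2296 to 2346 FPKM under normal conditions, and to 1624 to 1652 FPKM in DH4866 under drought, against 2029 to 2061 FPKM. The photosynthetic list summed to 72815 to 73014 FPKM in the labelled libraries under drought, against 74247 to 77051 FPKM under normal conditions. In DH4866 it summed to 68642 to 69158 FPKM under drought, against 78468 to 81677 FPKM. The senescing leaf list summed to 429 to 436 FPKM in the labelled libraries under drought, against 364 to 378 FPKM. In DH4866 it summed to 422 to 424.5 FPKM under drought, against 420 to 434 FPKM. The part of these lists in the members' changes was not tested.

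The libraries labelled *ZmNF-YA1* OE held slightly more ribosomal protein transcripts than DH4866, although *ZmNF-YA1* itself did not differ there. Under normal conditions 90 members were higher and 1 lower, against 10.1% and 9.88% of all genes, with a median of 0.26, and library size alone gave 110 higher and 1 lower. Under drought 53 were higher and 2 lower, against 10.8% and 11.8% of all genes, with a median of 0.17, and library size alone gave 54 and 2. None of these differences was large: 1 member passed a log2 fold change of 1 under normal conditions and 0 passed -1 (1.92% and 1.01% of all genes), and under drought 0 passed either (1.6% and 1.58% of all genes). The counts depended on single libraries. Leaving out *ZmNF-YA1* OE normal replicate 2 left 46 calls under normal conditions, and leaving out *ZmNF-YA1* OE normal replicate 1 or DH4866 normal replicate 1 left 60 each. Under drought, leaving out DH4866 drought replicate 1 or 2 left 18 or 27 calls, and leaving out either *ZmNF-YA1* OE drought library left 19.

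The 3 inbreds shared no library, so their drought calls could be set side by side for the 170 members tested in all of them. Of these, 105 (61.8%) were higher in both W22 and DH4866, against 19.9% of the 19792 genes tested in all 3 inbreds. Of these, 72 members (42.4% of those tested, against 6.35% of all genes) were lower in B104. With library size alone this number was 16 (9.41%, against 3.67% of all genes). Taken among the genes higher in both, the share lower in B104 was 68.6% for members and 32.0% for all genes with TMM. It was 16.7% for members and 21.5% for all genes with library size alone, so members showed no excess on that scale. With that scaling 13 of the 96 members higher in both were also higher in B104 (7.65% of those tested, against 6.5% of all genes). Among the genes higher in both, that was 13.5% of members, against 38.1% of all genes. Called higher in all 3 inbreds with TMM were 2 members (1.18%, against 5.37% of all genes), an S4 gene (GRMZM2G125271) and an L7 gene (GRMZM2G178807). Called lower in all 3 were 3 members (1.76%, against 6.48% of all genes), the L39 gene GRMZM2G048561, the L37 gene GRMZM2G106647 and the S4 gene GRMZM5G839920.

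When the reads of all genes of a protein were added up, which removes any division of reads between its paralogs, most proteins moved under drought with the majority of members (TMM). A sum holds more reads than a single gene and follows its most abundant gene, so these calls are not on the footing of those by gene. In W22 67 of 71 proteins were higher under drought and 1 lower (P2), against 34.8% and 33.8% of all genes tested singly. Under normal conditions all 71 were higher in *zmnf-ya1* than in W22 (30.2% of all genes), a count that was 50 with library size alone. The log2 fold change under drought was lower in *zmnf-ya1* than in W22 for 64 of 71 proteins (22.5% of all genes), or 38 with library size alone. Among the 64 were L16, L37 and S24, whose change was larger in size in *zmnf-ya1*. In B104 53 of 69 proteins were lower under drought with TMM (25.9% of all genes), against 9 lower and 10 higher with library size alone. S14 was the 1 protein higher there with TMM. In *ZmNF-YB16* OE 63 were lower (25.7% of all genes), or 38 with library size alone. In DH4866 56 of 71 were higher under drought and 6 lower, against 31.6% and 31.1% of all genes. The L16 name fell most in DH4866 (-2.003 ± 0.17) and in *zmnf-ya1* (-1.82 ± 0.19), and it is one of the names placed by a putative description only.

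**Figure D3:**
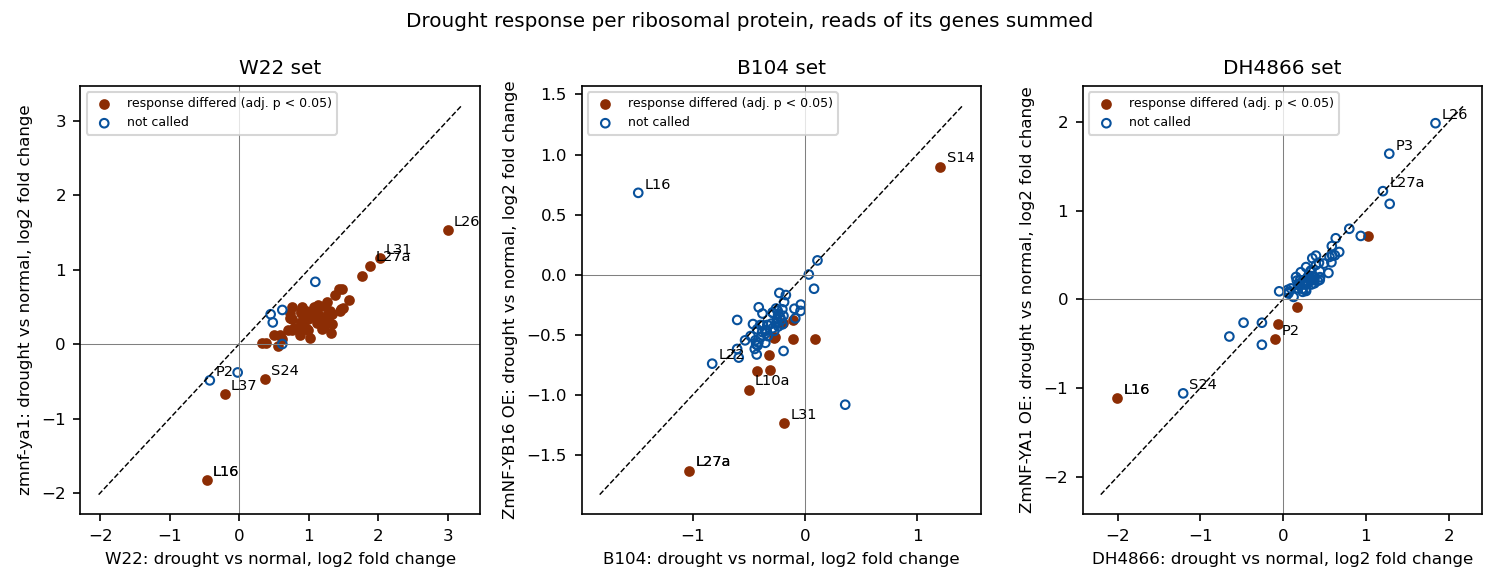
Drought response of each ribosomal protein after the reads of its genes were summed, as log2 fold change of drought over normal (TMM) in the inbred on the x axis and in the mutant or transgenic line of the same set on the y axis, with a dashed line where both would be equal. Filled points are proteins whose responses differed by the interaction term: 64 of 71 in the W22 set, 13 of 69 in the B104 set and 5 of 71 in the DH4866 set. Of all genes tested singly, 37.8%, 17.7% and 18.1% differed in these sets. With library size alone 9 proteins were lower and 10 higher in B104 under drought.

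The proteins of the stalk behaved unevenly. The stalk is the flexible arm of the 60S subunit that recruits elongation factors, built on P0 and carrying P1 and P2, with P3 as a plant form. The P0 gene GRMZM2G179976 showed the clearest steps: 29.1 and 29.1 CPM in W22 under drought against 9.24 and 8.37 CPM under normal conditions (1.73 ± 0.08, adjusted p = 8.6e-10). It stood at 27.7 and 25.4 CPM in DH4866 under drought, against 5.01 and 4.95 CPM under normal conditions (2.41 ± 0.10, adjusted p = 3.4e-11). In both inbreds the groups lay far apart. The second P0 gene, GRMZM2G066460, which was the more abundant of the pair in FPKM, stood at 105 and 107 CPM in W22 under drought, against 54.6 and 52.4 CPM under normal conditions (0.99 ± 0.06, adjusted p = 1.6e-08), but its step in DH4866 was small (0.15 ± 0.06, adjusted p = 0.038, a call lost with library size alone). In B104 the gene GRMZM2G179976 was lower under drought at 40.1 and 36.1 CPM, against 49.6 and 52.6 CPM under normal conditions (-0.42 ± 0.10, adjusted p = 0.002, a call lost at -0.12 with library size alone), while for GRMZM2G066460 the direction in B104 turned from -0.17 ± 0.06 with TMM to 0.13 with library size alone.

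P2 went against the majority of members in the W22 set. Its main gene, GRMZM2G114954, stood at 101 and 111 CPM in W22 under drought, against 148 and 161 CPM under normal conditions (-0.54 ± 0.07, adjusted p = 1.1e-05). In *zmnf-ya1* it stood at 120.2 and 129 CPM under drought, against 166 and 178 CPM under normal conditions (-0.47 ± 0.07, adjusted p = 6.4e-05). Lower values under drought were thus found in both genotypes, and their responses did not differ by the interaction term (adjusted p = 0.57, which does not show that they were equal). It was also lower under drought in B104 (-0.57 ± 0.06, adjusted p = 4.4e-08), in *ZmNF-YB16* OE (-0.51 ± 0.06, adjusted p = 1.7e-07) and in the libraries labelled *ZmNF-YA1* OE (-0.43 ± 0.07, adjusted p = 1.2e-04), where it stood at 100.4 and 104.2 CPM under drought against 128 and 149 CPM. In DH4866 itself the step did not pass the test, with 139 and 146 CPM under drought and 140.2 and 154 CPM under normal conditions (-0.05 ± 0.07, adjusted p = 0.58), and the responses of these 2 genotypes differed (interaction -0.39 ± 0.10, adjusted p = 0.016). Under drought the libraries labelled *ZmNF-YA1* OE were lower than DH4866 (-0.48 ± 0.07, adjusted p = 3.1e-04), the largest fall among the called members of that comparison. Another P2 gene, GRMZM2G075630, was higher under drought in W22 (0.25 ± 0.08, a call lost with library size alone) but lower in *zmnf-ya1* (-0.60 ± 0.08), and its responses differed (interaction -0.84 ± 0.11, adjusted p = 5.3e-05). A scarce P2 gene, GRMZM2G160517, was higher under drought in both genotypes of the B104 set, at 4.80 and 3.45 CPM in *ZmNF-YB16* OE under drought against 1.34 and 1.62 CPM (1.48 ± 0.44, adjusted p = 0.0087), and at 5.95 and 3.83 CPM in B104 under drought against 2.71 and 1.99 CPM (1.01 ± 0.41, adjusted p = 0.047). Neither call held with DESeq2. The P3 gene GRMZM2G378770 was low, with 4.13 and 3.24 CPM in W22 under drought against 1.65 and 1.27 CPM under normal conditions (1.33 ± 0.23, adjusted p = 1.6e-04), and 3.95 and 4.10 CPM in DH4866 under drought against 1.41 and 1.89 CPM (1.28 ± 0.20, adjusted p = 7.1e-05).

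S6 is the small subunit protein whose phosphorylation through the TOR pathway is the best known mark of ribosome regulation, here seen only at the level of RNA. Its 2 main genes moved alike in W22. GRMZM2G054136 stood at 61.7 and 64.7 CPM in W22 under drought, against 31.6 and 28.2 CPM under normal conditions (1.08 ± 0.07, adjusted p = 1.4e-08). GRMZM5G851698 stood at 59.4 and 56.1 CPM under drought, against 27.2 and 29.5 CPM (1.03 ± 0.07, adjusted p = 1.4e-08). Both were higher in *zmnf-ya1* than in W22 under normal conditions, by 0.60 ± 0.07 and 0.70 ± 0.07, and both had smaller drought responses there (adjusted p = 1.9e-04 and 1.0e-04). In B104 GRMZM2G054136 was lower under drought, at 126 and 138 CPM against 194 and 202 CPM (-0.59 ± 0.07, adjusted p = 1.9e-07), while GRMZM5G851698 turned from -0.15 ± 0.06 with TMM to 0.14 with library size alone. The third S6 gene, GRMZM2G040600, separated the 2 genotypes of the B104 set: it had 0 reads in all 4 *ZmNF-YB16* OE libraries, and 3.40 and 1.92 CPM in B104 under drought and 5.21 and 5.96 CPM under normal conditions. Against a floor of 3 reads per library it was at least 8.74-fold lower in *ZmNF-YB16* OE under normal conditions and at least 5.19-fold lower under drought. It was near 0 in the other 2 sets, at or below 0.283 CPM in each of their 16 libraries.

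L10 sits beside the tRNA sites of the 60S subunit. Its gene GRMZM2G027451 stood at 129 and 126 CPM in W22 under drought, against 62.1 and 59.2 CPM under normal conditions (1.07 ± 0.06, adjusted p = 2.0e-09), and at 136 and 136 CPM in *zmnf-ya1* under drought, against 100.3 and 98.02 CPM (0.46 ± 0.06, adjusted p = 1.1e-05). The 2 genotypes thus nearly met under drought, while W22 was the lower under normal conditions. In DH4866 the step was 0.28 ± 0.05, adjusted p = 3.7e-04, and in B104 the sign turned, at -0.23 ± 0.06 with TMM and 0.07 with library size alone. In *ZmNF-YB16* OE it was -0.15 ± 0.06 with TMM and 0.10 with library size alone.

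L10a (GRMZM2G144387), the most abundant 60S member, was among the few that separated *zmnf-ya1* from W22 under drought. It stood at 215 and 217 CPM in *zmnf-ya1* under drought, against 131 and 139 CPM in W22 under drought (0.68 ± 0.06, adjusted p = 6.0e-06). Under normal conditions it stood at 156 and 172 CPM in *zmnf-ya1*, against 96.2 and 102 CPM in W22 (0.73 ± 0.06, adjusted p = 7.8e-07). The offset between the genotypes was about the same in both conditions, and the drought responses did not differ by the interaction term (adjusted p = 0.7). L28 (GRMZM2G394827), also of the 60S subunit, was also higher there, at 68.7 and 74.4 CPM in *zmnf-ya1* under drought and 43.7 and 45.8 CPM in W22 under drought (0.68 ± 0.07, adjusted p = 1.3e-05). In the B104 set L10a was lower under drought in both genotypes: in *ZmNF-YB16* OE it stood at 262 and 235 CPM under drought, against 482 and 481 CPM (-0.95 ± 0.05, adjusted p = 3.1e-12), and in B104 at 336 and 323 CPM, against 458 and 474 CPM (-0.50 ± 0.05, adjusted p = 6.6e-08).

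The ubiquitin fusions S27a and L40 are made as precursors that release ubiquitin, so that their genes also feed the pool of that protein tag. The S27a gene GRMZM2G357296 followed the majority, with 50.4 and 54.00 CPM in W22 under drought, against 24.8 and 24.02 CPM under normal conditions (1.10 ± 0.07, adjusted p = 8.8e-09). A second S27a gene, GRMZM2G006293, went the other way in 3 of the 6 genotypes: it stood at 1.83 and 1.83 CPM in DH4866 under drought, against 7.25 and 7.50 CPM under normal conditions (-2.01 ± 0.16, adjusted p = 5.4e-08). In the libraries labelled *ZmNF-YA1* OE it stood at 2.49 and 2.70 CPM under drought, against 8.02 and 9.38 CPM (-1.74 ± 0.14, adjusted p = 9.4e-08). In *zmnf-ya1* it stood at 2.93 and 2.51 CPM under drought, against 8.69 and 7.65 CPM (-1.58 ± 0.17, adjusted p = 2.5e-06), whereas in W22 its 2.25 and 2.96 CPM under drought and 3.48 and 3.09 CPM under normal conditions did not differ by the test (adjusted p = 0.13). The 2 main S27a genes were thus called in opposite directions in *zmnf-ya1*, in DH4866 and in the material labelled *ZmNF-YA1* OE. L40 (GRMZM2G116292) changed little, by 0.49 ± 0.07 in W22, by 0.17 ± 0.06 in DH4866 and by -0.25 ± 0.08 in B104 under drought, where it turned to 0.05 with library size alone. Its smaller drought response in *zmnf-ya1* (-0.38 ± 0.10, adjusted p = 0.0081) was lost with library size alone (-0.01), and on log2 FPKM with a pseudocount of 1 the value was 0.0078.

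**Figure D4:**
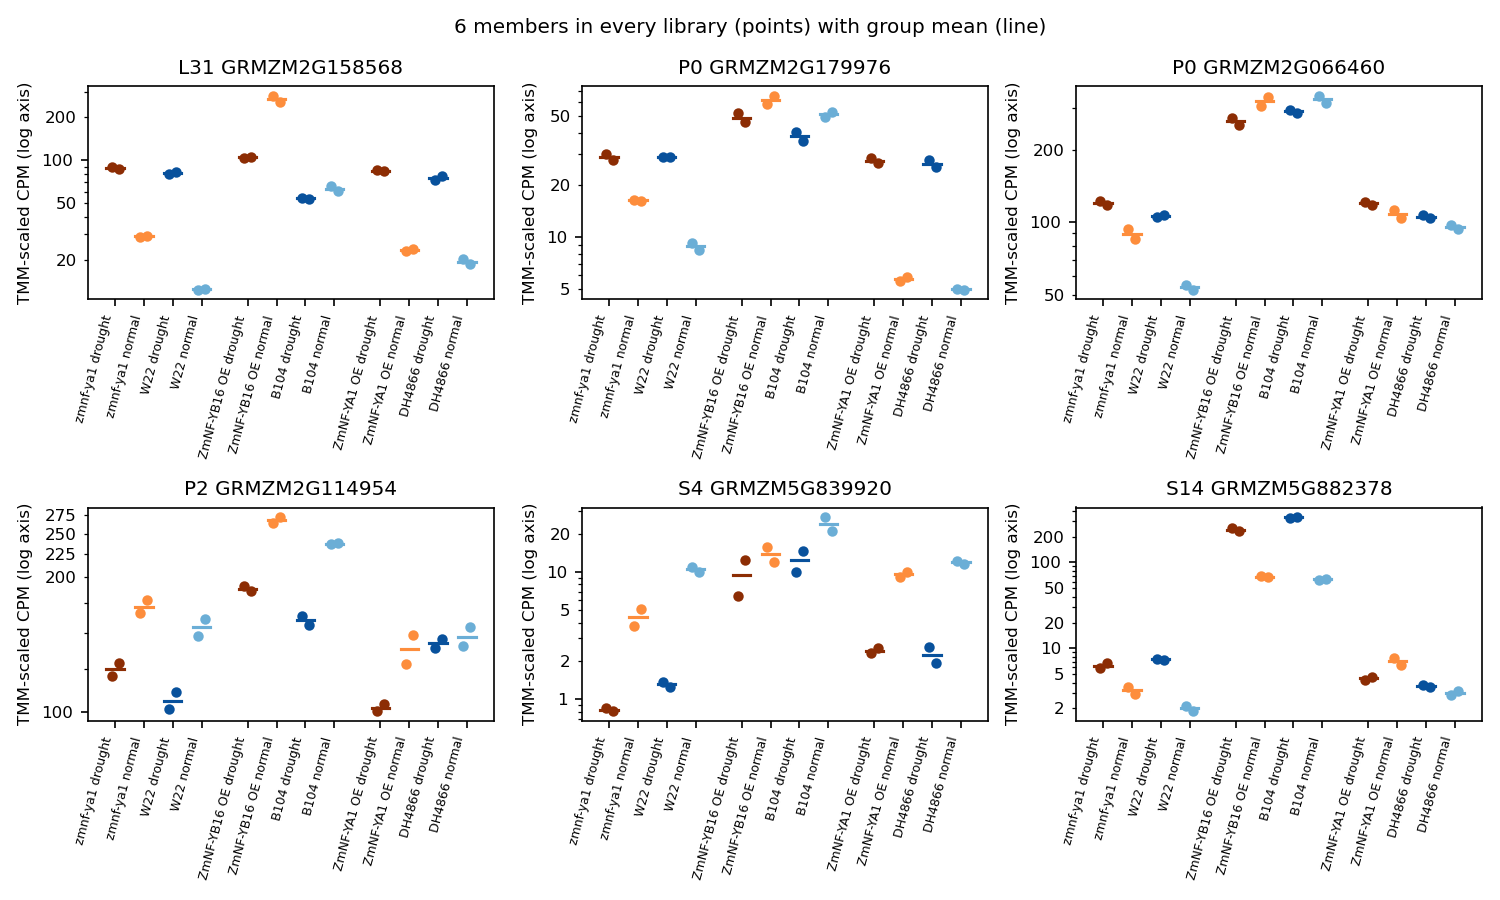
TMM-scaled CPM (log axis) of 6 members in all 24 libraries, with 1 point per library and a line at the group mean. L31 GRMZM2G158568 stands at 71.8 to 88.6 in the drought libraries of the W22 and DH4866 sets and at 12.3 to 29.3 in their normal libraries, while P2 GRMZM2G114954 is lower under drought in 5 of 6 genotypes.

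L31, a 60S protein near the exit of the peptide tunnel, showed one of the largest steps among abundant members. Its gene GRMZM2G158568 stood at 79.6 and 82.5 CPM in W22 under drought, against 12.3 and 12.5 CPM under normal conditions (2.71 ± 0.07, adjusted p = 1.4e-12). In *zmnf-ya1* it stood at 88.6 and 85.9 CPM under drought, against 28.9 and 29.3 CPM (1.59 ± 0.06, adjusted p = 1.6e-10). The responses differed by -1.12 ± 0.09 (adjusted p = 1.2e-06), and the unstressed libraries of the 2 genotypes stood apart (1.23 ± 0.07) while the drought libraries did not by the test (adjusted p = 0.23). DH4866 had 71.8 and 76.8 CPM under drought, against 20.2 and 18.5 CPM (1.94 ± 0.07, adjusted p = 1.0e-11). In the B104 set the gene marked the transgenic line instead: under normal conditions *ZmNF-YB16* OE had 283 and 257 CPM, against 65.5 and 60.6 CPM in B104 (2.09 ± 0.08, adjusted p = 3.4e-14). Under drought *ZmNF-YB16* OE had 103 and 105 CPM, against 53.9 and 53.6 CPM in B104 (0.96 ± 0.08, adjusted p = 5.2e-09), and the drought responses differed by -1.14 ± 0.11, adjusted p = 2.2e-07. Summed over its 3 genes, L31 was higher under drought by 2.02 ± 0.06 in W22 and higher in *ZmNF-YB16* OE than in B104 under normal conditions by 1.43 ± 0.06.

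Several other abundant members had large steps in W22. S29 (GRMZM2G165208), a small zinc-binding protein of the 40S head, stood at 55.2 and 58.2 CPM in W22 under drought, against 9.37 and 10.3 CPM under normal conditions (2.53 ± 0.08, adjusted p = 7.6e-12). Its response was smaller in *zmnf-ya1*, at 1.40 ± 0.07 (interaction -1.13 ± 0.11, adjusted p = 3.5e-06). S9 (GRMZM2G108348) stood at 156 and 163 CPM in W22 under drought, against 64.1 and 64.5 CPM (1.31 ± 0.06, adjusted p = 2.3e-10), and in DH4866 it did not pass the test (-0.03 ± 0.05, adjusted p = 0.66). L27a (GRMZM2G427468), the only gene of its name, rose by 1.87 ± 0.10 in W22 and 1.21 ± 0.07 in DH4866, and fell by 1.03 ± 0.13 in B104 and by 1.63 ± 0.12 in *ZmNF-YB16* OE. These falls held with library size alone, at -0.74 and -1.38.

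S14 took the opposite course in the B104 set. The S14 gene GRMZM5G882378 stood at 334 and 337 CPM in B104 under drought, against 63.2 and 64.2 CPM under normal conditions (2.40 ± 0.07, adjusted p = 4.2e-17), and at 249.6 and 234 CPM in *ZmNF-YB16* OE under drought, against 69.3 and 66.9 CPM (1.83 ± 0.07, adjusted p = 3.1e-15). These were among the largest rises of a member in that set, and S14 was the one protein whose summed reads were higher under drought in both genotypes there. An L18a gene, GRMZM2G100349, was also higher in B104 under drought, with 8.16 and 6.44 CPM in B104 under drought, against 0.417 and 0.993 CPM under normal conditions (adjusted p = 2.7e-06). No fold is given, since it had 2 and 3 reads in the B104 normal libraries. In the W22 set the S14 gene was scarce, with 7.55 and 7.36 CPM in W22 under drought and 2.16 and 1.86 CPM under normal conditions (1.89 ± 0.16, adjusted p = 1.7e-07). In the libraries labelled *ZmNF-YA1* OE under normal conditions it had 7.79 and 6.42 CPM, against 2.87 and 3.21 CPM in DH4866 (1.22 ± 0.15, adjusted p = 5.3e-05), the 1 member with a log2 fold change above 1 in that comparison.

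Some paralogs replaced each other in the counts. RSEM, the program that counted the reads, divides reads that match several genes by an estimate, so values of near-identical paralogs carry a doubt that the tests do not see. Of the 3 L26 genes, GRMZM2G412848 had 3.99 and 4.49 CPM and GRMZM2G470608 had 2.81 and 4.03 CPM in W22 under drought, against 0 reads of either in both W22 normal libraries, which is at least 33.4-fold and at least 26.9-fold higher against a floor of 3 reads per library. GRMZM2G307892 did the reverse, with 0 reads in W22 under drought and 1.02 and 0.888 CPM under normal conditions, at least 6.76-fold lower. GRMZM2G412848 and GRMZM2G470608 were also present in all 4 drought libraries of the DH4866 set and at 0 in its 4 normal libraries. In *zmnf-ya1* part of this pattern was present without drought. Under normal conditions GRMZM2G412848 was at least 21.9-fold higher and GRMZM2G307892 at least 5.71-fold lower in *zmnf-ya1* than in W22. Neither of these was called under drought in *zmnf-ya1*, where GRMZM2G470608 was at least 24.4-fold higher under drought. Summed over the 3 genes, L26 stood at 7.67 ± 1.22 CPM in W22 under drought and 0.951 ± 0.0913 CPM under normal conditions (SD, n = 2 each), a log2 fold change of 3.005 ± 0.20, so the summed reads of the 3 genes moved too.

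**Figure D5:**
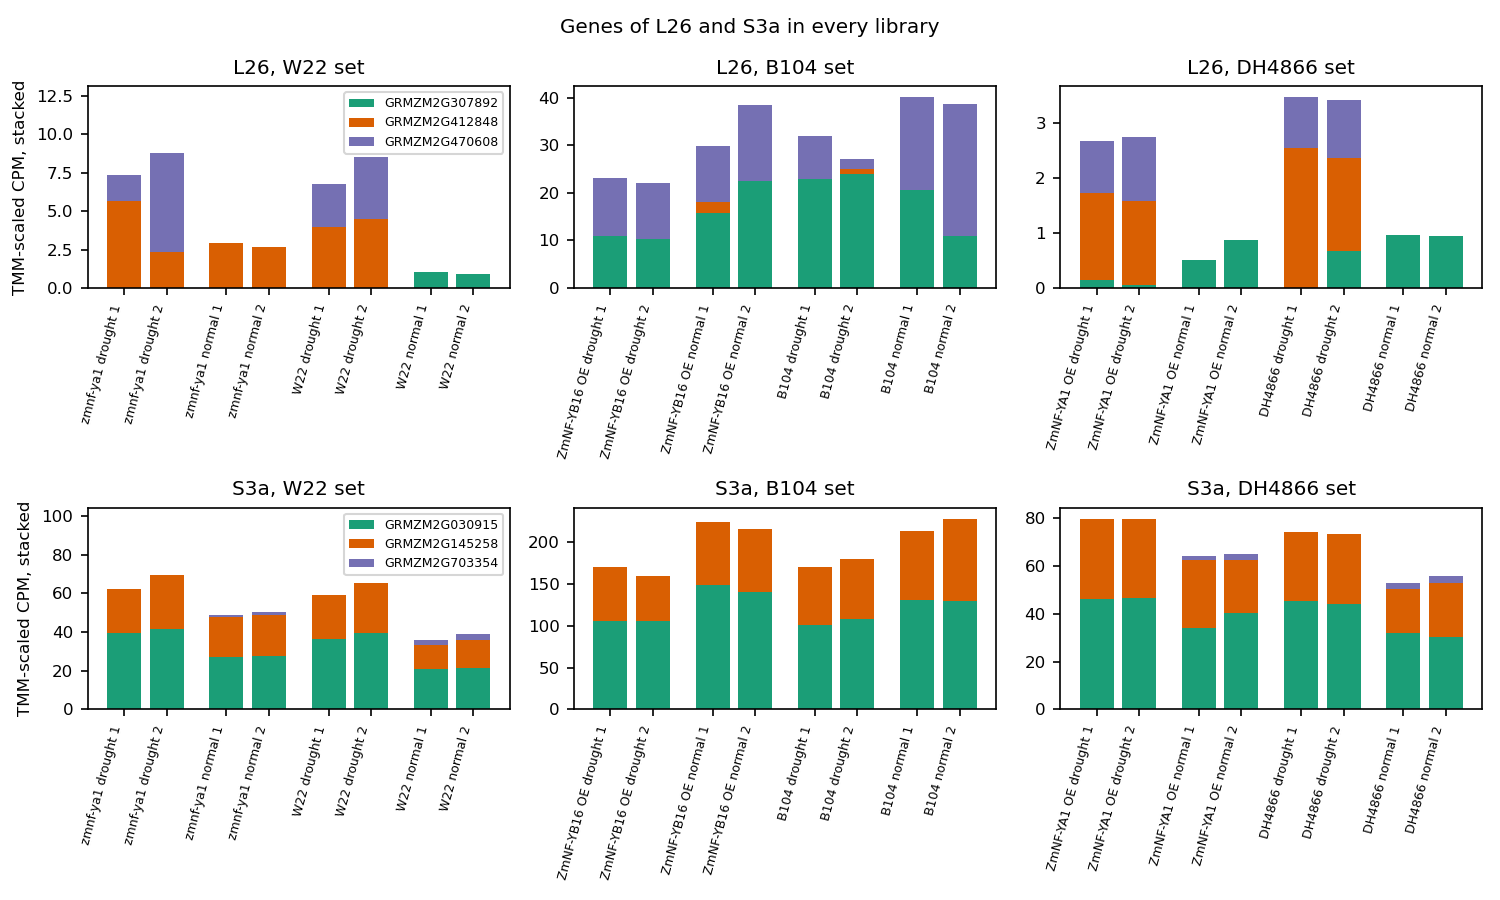
Reads of the 3 genes of L26 (top) and of S3a (bottom) in every library, stacked in TMM-scaled CPM, with the colour giving the gene. In W22 GRMZM2G412848 and GRMZM2G470608 supply L26 under drought, where GRMZM2G307892 has 0 reads. In *zmnf-ya1* GRMZM2G412848 has reads under normal conditions too. The third gene of S3a, GRMZM2G703354, has 0 reads in all drought libraries of the W22 and DH4866 sets.

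S3a was a contrary case, where 1 minor gene vanished from the counts while the summed reads of the S3a genes rose in W22. GRMZM2G703354 had 0 reads in the 8 drought libraries of the W22 and DH4866 sets, against 2.37 and 2.96 CPM in W22, 1.53 and 1.34 CPM in *zmnf-ya1*, 2.43 and 2.97 CPM in DH4866 and 1.95 and 2.28 CPM in the libraries labelled *ZmNF-YA1* OE under normal conditions. It was at least 19.1-fold lower under drought in W22, 10.1-fold in *zmnf-ya1*, 18.7-fold in DH4866 and 14.6-fold in the libraries labelled *ZmNF-YA1* OE. The other 2 S3a genes were higher under drought in W22, and the protein's summed reads changed by 0.74 ± 0.08. L17 (GRMZM2G332918) had 3.91 and 4.39 CPM in DH4866 under drought and 4.41 and 5.30 CPM under drought in the libraries labelled *ZmNF-YA1* OE, against 0 reads in the 4 normal libraries of that set, at least 28.8-fold and 35.1-fold higher. In the W22 and B104 sets it was above 0 in all 16 libraries.

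S4, the protein with most genes, held members that moved against each other. GRMZM5G839920 stood at 1.36 and 1.25 CPM in W22 under drought, against 10.98 and 9.94 CPM under normal conditions (-2.997 ± 0.18, adjusted p = 5.3e-09). It fell likewise in *zmnf-ya1* (-2.41 ± 0.23), DH4866 (-2.41 ± 0.14) and *ZmNF-YA1* OE as labelled (-1.99 ± 0.15). Meanwhile GRMZM2G063988 had 2.204 and 2.08 CPM in W22 under drought and 0.0848 and 0.211 CPM under normal conditions, few reads (adjusted p = 3.1e-05). In the B104 set another S4 gene, GRMZM2G005640, marked the genotype: 2.30 and 3.70 CPM in *ZmNF-YB16* OE under normal conditions, against 33.1 and 29.1 CPM in B104 (-3.41 ± 0.24, adjusted p = 8.5e-10), with a similar gap under drought (-3.85 ± 0.25). S11 (GRMZM2G086486) stood the other way, at 10.3 and 8.56 CPM in *ZmNF-YB16* OE under normal conditions and 0 and 0.331 CPM in B104 (adjusted p = 1.3e-06). So did S10 (GRMZM2G065237), at 6.70 and 11.6 CPM in *ZmNF-YB16* OE and 0.417 and 0.331 CPM in B104 (adjusted p = 4.6e-05). No fold is given for these 2 genes, which had 0 to 2 reads in each B104 normal library. S12 (GRMZM6G741620) was lower under drought in the W22 set (-1.65 ± 0.21 in W22) and in the DH4866 set, at 0.771 and 0.289 CPM in DH4866 under drought against 3.89 and 4.29 CPM (-2.93 ± 0.32, adjusted p = 1.4e-06). Members of 1 protein were called in opposite directions for 8 proteins in W22 drought, 11 in *zmnf-ya1* drought, 7 in B104 drought, 8 in DH4866 drought and 13 in the libraries labelled *ZmNF-YA1* OE.

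Elsewhere in the translation machinery the elongation factors, which drive each step of the ribosome along the message, ran the same way as the members. Of 14 tested, 12 were higher and 1 lower in W22 under drought (median 0.64), against 34.8% and 33.8% of all genes. In *zmnf-ya1* under drought 11 were higher and 1 lower (0.30), against 28.1% and 29.6% of all genes. In *zmnf-ya1* against W22 under normal conditions 11 were higher and 1 lower (0.67), against 30.2% and 23.4% of all genes. In B104 0 were higher and 10 lower under drought (-0.31), against 25.3% and 25.9% of all genes, or 3 and 3 with library size alone (-0.02). In *ZmNF-YB16* OE 0 were higher and 12 lower (-0.59), against 25.5% and 25.7% of all genes. The initiation factors were called in both directions, with 14 higher and 11 lower of 32 in W22 under drought. Genes of ribosome assembly were too, with 15 higher and 10 lower of 36. All genes tested there split likewise, with 34.8% higher and 33.8% lower. In summed CPM (TMM) the TOR pathway list, with 3 genes above 0, ran against the members in some comparisons and not in others. It ran with them in the libraries labelled *ZmNF-YA1* OE over DH4866 under drought (1.07, members 1.11). It was flat for drought in *zmnf-ya1* (1.00, members 1.26). Against the members, its drought over normal was 0.89 in W22, 0.84 in DH4866 and 1.46 in B104, and *zmnf-ya1* over W22 was 0.73 under normal conditions. In the same order, genes of the nascent polypeptide-associated complex were at 1.90, 1.66, 0.46 and 1.62, and RNA polymerase I genes at 0.86, 1.01, 0.74 and 1.08. The elongation factors were at 1.09 in DH4866. The 46 genes described as 30S or 50S ribosomal proteins, the type of the bacterial, chloroplast and mitochondrial ribosome, include no member. Under drought they ran with the members in W22 (29 higher and 3 lower of 43 tested, median 0.47), against 34.8% and 33.8% of all genes. They did so in DH4866 as well (29 higher and 3 lower of 44, median 0.50), against 31.6% and 31.1% of all genes. In *zmnf-ya1* 5 were higher and 17 lower under drought (median -0.04), against 28.1% and 29.6% of all genes. This balance turned to 18 higher and 11 lower with library size alone (median 0.19). In B104 4 were higher and 32 lower under drought (median -0.78), against 25.3% and 25.9% of all genes, or 5 and 26 with library size alone. In share of counts this list was at 0.521 times its normal level, a mean that rests in part on B104 normal replicate 2. The cytosolic members were at 1.02 times theirs.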

How the data were processed

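Leaf RNA of 24 maize libraries was sequenced in 3 sets of 8. By the study's methods the authors filtered reads with SOAPnuke, aligned them with Bowtie2 to the B73 version 3 gene set and counted them with RSEM. HISAT is named as well, and for the DH4866 set the steps are not given in the sources used here. The deposited tables hold, per gene and library, expected counts, which RSEM estimates and which need not be whole, and FPKM, which the authors corrected for transcript length and library depth. Expected counts were rounded to whole numbers, filtered with filterByExpr, scaled by TMM and tested with edgeR 4.0.16 (R 4.3.3; quasi-likelihood test), each set in 1 fit of its 4 groups. Benjamini-Hochberg adjustment ran over all genes of the set, with a threshold of 0.05. Errors of fold changes are standard errors. FPKM served for levels between genes and for sums over lists. The labels do not say that replicates came from separate plants, so p-values measure only the spread between these libraries, and 2 against 2 libraries cannot reach an exact two-sided permutation p below 0.333. The depth limits the B104 set most. Intervals and floors (3 counts per library) cover counting error only.

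Groups were taken from the labels. The 4 members whose identifiers are shortened to clone names in the B104 tables were not read there. Alternatives were DESeq2 1.42.0, its size factors, library size alone, no filter, limma 3.58.1 on log2 FPKM with pseudocounts of 1 and 0.1, only the groups compared, a replicate block, and each library left out. Sums of reads per protein were added after seeing the data. The fits were tested on simulated data. Named by rule were, per comparison, up to 3 members with the largest called rise and fall whose groups did not overlap, the 3 most abundant of each subunit, the P proteins, S6, L10, S27a and L40, and the 3 proteins per comparison with the widest gap between members called in opposite directions. Not every gene the rule allows is named. Genes outside it, such as those called alike in all 3 inbreds, were named after their values were seen. The members and lists were chosen with earlier results of these data known. The level of *ZmNF-YB16* was not analysed here.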

Additional observations from a re-analysis of the deposited data

Results flagged for a closer look

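The response to drought differed between genotypes, by the interaction term of edgeR's quasi-likelihood test, for 139 members between *zmnf-ya1* and W22, for 22 members between *ZmNF-YB16* OE and B104, and for 9 members between the libraries labelled *ZmNF-YA1* OE and DH4866. With TMM these were 77.2%, 12.8% and 4.97% of the members tested, against 37.8%, 17.7% and 18.1% of all genes. On that scale only the first share lay above that of all genes. The 139 became 82 with library size alone, the 22 became 7 with DESeq2, and the 9 became 18 with library size alone and 1 with DESeq2. The shares of all genes in these other settings are not given here, so the comparison above holds for TMM only. Of the 139, 137 had a lower log2 fold change under drought in *zmnf-ya1*.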

How the results depend on the processing

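The counts of called members that are not given here stayed within 1.5 times of the reported ones. With DESeq2 the calls numbered 10 for *zmnf-ya1* against W22 under drought, 68 for drought in B104 (4 higher, 64 lower), 19 and 23 for *ZmNF-YB16* OE against B104 under normal conditions and under drought, 7 for its interaction, and 41, 12 and 1 for the libraries labelled *ZmNF-YA1* OE against DH4866 under normal conditions, under drought and for the interaction. With library size alone they numbered 82 for the *zmnf-ya1* interaction, 55 for drought in B104 (30 higher, 25 lower), 45 for *ZmNF-YB16* OE against B104 under normal conditions (28 higher, 17 lower) and 18 for the *ZmNF-YA1* OE interaction. With limma on log2 FPKM, with pseudocounts of 1 and 0.1, they numbered 86 and 84 for the *zmnf-ya1* interaction, 59 (33 higher, 26 lower) and 57 (32 higher, 25 lower) for drought in B104, 78 and 77 for drought in *ZmNF-YB16* OE, 45 (32 higher, 13 lower) and 41 (29 higher, 12 lower) for *ZmNF-YB16* OE against B104 under normal conditions, and 15 and 14 for the *ZmNF-YA1* OE interaction, and with 0.1 alone 36 for *ZmNF-YB16* OE against B104 under drought. Without the filter they numbered 43 for *ZmNF-YB16* OE against B104 under normal conditions (22 higher, 21 lower) and 4 for the *ZmNF-YA1* OE interaction. Summed per protein with library size alone, an alternative chosen after seeing the data, they numbered 40 for the *zmnf-ya1* interaction, 19 for drought in B104 (10 higher, 9 lower), 40 for drought in *ZmNF-YB16* OE, and 36 for drought and 8 for the interaction in *ZmNF-YA1* OE. For drought in B104, and for *ZmNF-YB16* OE against B104 under normal conditions, the direction that prevailed turned in these settings, except with DESeq2. The cause was not tested.

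With 1 library left out, its partner being assumed to vary like the other groups, the calls ranged, in the W22 set, from 160 to 170 for drought in W22, from 105 to 127 for drought in *zmnf-ya1*, from 148 to 159 between genotypes under normal conditions, from 6 to 21 under drought and from 121 to 130 for the interaction. In the B104 set they ranged from 78 to 105, from 105 to 122, from 30 to 41, from 29 to 66 and from 18 to 25 in the same order, and in the DH4866 set from 110 to 133, from 93 to 119, from 46 to 80, from 18 to 60 and from 2 to 9.

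Single genes reversed as follows. The interaction of L40 (GRMZM2G116292) in *zmnf-ya1* was 0.0078 and 0.0071 with limma at pseudocounts of 1 and 0.1. For drought in B104, library size alone gave 0.067 for L10, 0.13 for P0 (GRMZM2G066460), 0.046 for L40 and 0.14 for S6 (GRMZM5G851698), and limma at either pseudocount gave 0.067, 0.15, 0.037 and 0.15 for them and 0.027 for S8 (GRMZM2G360677). For drought in *ZmNF-YB16* OE, L10 was at 0.10 in all 3 settings and P0 at 0.0045 with limma at either pseudocount. Over 281 pairs of gene and comparison and 4444 alternatives, 3976 kept call and direction, 402 lost the call, 45 gained one and 21 reversed. No source used here states what a replicate number pairs. Deviations of libraries with the same number correlated at -0.02 to 0.08, which is weak but does not show that the libraries were unpaired. The replicate block moved 1 count beyond 1.5 times, the *ZmNF-YA1* OE interaction, to 17.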
